A study of Mus musculus with 13 samples.

Results

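Transcript levels of 10 genes of fatty acid and surfactant lipid synthesis were compared between normoxic and hyperoxic mouse lung. The genes were Srebf1, Acly, Acaca, Fasn, Elovl1, Scd1, Scd2, Chka, Pcyt1a and Lpcat1, taken as the rows of the deposited count table with exactly these symbols, so 10 of 32544 gene symbols. All 10 had enough counts to be tested. Of these, 4 (Acly, Fasn, Scd1 and Lpcat1) were lower in hyperoxia and 0 were higher, where 10.8% of all genes tested were lower and 11.8% were higher.

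Wild-type male C57BL/6J mice, 7 weeks old at purchase, breathed 21% oxygen (normoxia, 7 libraries) or 80% oxygen (hyperoxia, 6 libraries) for 5 days. Both groups shared strain, genotype and sex, and the lungs were perfused with cold buffer before freezing. RNA of the whole lung was sequenced with Quant-seq, a method that reads the 3′ end of polyadenylated transcripts. The labels number the samples but do not say that each is a separate animal, so p-values here measure the spread between these libraries. In bulk tissue, fewer cells of a type and less RNA per cell cannot be told apart.

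Fatty acids are built in the cytosol from acetyl-CoA, which ATP citrate lyase makes from citrate, acetyl-CoA carboxylase turns into malonyl-CoA, and fatty acid synthase joins into palmitate. Elongases and stearoyl-CoA desaturases then lengthen the chains or add a double bond, and SREBP-1, the product of Srebf1, is a transcription factor known to drive many of these genes. In lung, alveolar type 2 cells use palmitate to make dipalmitoyl phosphatidylcholine, the main lipid of surfactant, through choline kinase, CTP:phosphocholine cytidyl transferase and the acyltransferase LPCAT1.

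The libraries held 1607111 to 4540288 counts, and 12496 genes passed the filter on low counts. Levels are given as CPM (counts scaled to a common library size, here after TMM), and fold changes are hyperoxia minus normoxia on the log2 scale. Hyperoxia replicate 1 stood apart from all other libraries. Its log2 CPM correlated with the others at 0.721 to 0.833, against 0.854 to 0.967 among the other 12. It had counts for 14170 genes (15476 to 16595 in the others) and a mitochondrial share of 0.944% (1.94 to 3.24%). The median deviation of its genes with the shortest transcripts was 0.58 log2 units below that of its genes with the longest (-0.58, against -0.29 to 0.32 in the others). Results are therefore given with and without this library. The letters in the library names form separate sets, B to M with 5 normoxic and 3 hyperoxic libraries, and O to S with 2 and 3, and fold changes within a set are given as values with no test. What the letters stand for is not given in the sources used here.

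The genes lie on chromosomes 4, 11, 13, 16 and 19 of GRCm38 (GENCODE M21 annotation). Srebf1 (chr11:60199089-60222581), Acly (chr11:100476353-100528000) and Fasn (chr11:120805846-120824547) are on the minus strand, and Acaca (chr11:84129672-84401651) is on the plus strand of the same chromosome. Scd1 (chr19:44394455-44407879, minus) and Scd2 (chr19:44293674-44306864, plus) are neighbors, and Chka (chr19:3851773-3894369, plus) lies on the same chromosome. Elovl1 (chr4:118428093-118432953), Lpcat1 (chr13:73467197-73516422) and Pcyt1a (chr16:32430921-32475070) are on the plus strand. The transcripts of Scd1 and Scd2 shared 252 of the 4802 stretches of 31 bases of Scd1, but 0 of 470 in its last 500 bases, the end that Quant-seq reads.

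Promoter sequence is shown for Fasn and Acly, the lower genes of palmitate synthesis, and for a stretch of Pcyt1a, which held a sterol element core, alone among the 8 genes with a window in the promoter table (Scd1 and Scd2 had none). The first 2 lines are the 250 bases before the transcript start in the RefSeq promoter table (GRCm38.p6), on the minus strand at chr11:120824548-120824797 for Fasn and chr11:100528001-100528250 for Acly. Capitals mark CCAAT in either direction in Fasn, and GGGCGG in either direction (the GC box) in Acly. The third line is 59 bases at chr16:32430780-32430838, plus strand, with the sterol element core in capitals.
Fasn: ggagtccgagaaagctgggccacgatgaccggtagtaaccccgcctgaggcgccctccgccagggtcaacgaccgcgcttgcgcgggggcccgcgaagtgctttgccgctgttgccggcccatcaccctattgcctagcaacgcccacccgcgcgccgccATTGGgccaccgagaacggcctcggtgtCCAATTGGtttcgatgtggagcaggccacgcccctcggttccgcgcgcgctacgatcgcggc
Acly: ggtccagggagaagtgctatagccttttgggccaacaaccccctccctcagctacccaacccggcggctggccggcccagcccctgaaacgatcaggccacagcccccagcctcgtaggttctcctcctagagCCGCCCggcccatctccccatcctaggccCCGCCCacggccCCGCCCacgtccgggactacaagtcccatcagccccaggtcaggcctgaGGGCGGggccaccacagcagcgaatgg
Pcyt1a: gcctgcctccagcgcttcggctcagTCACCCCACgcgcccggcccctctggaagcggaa

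The Fasn window held 3 matches to CCAAT, the site of NF-Y, of which the pair nearest the start overlap, and the Acly window held 4 matches to GGGCGG. Both strands of each gene's windows were searched. CCAAT was found in 33.8% and GGGCGG in 32.7% of all 32851 windows of 250 bases, so both are common. Of the 8 genes with a window in the table, 4 had a CCAAT match (Srebf1, Fasn, Elovl1 and Chka) and 6 had a GGGCGG match (Srebf1, Acly, Elovl1, Chka, Pcyt1a and Lpcat1). A match in any window of a gene was counted, and Srebf1 and Pcyt1a had 3 windows each and Elovl1 had 2. The counts of genes are therefore not in the same unit as the shares of windows. The sterol element core, searched as TCACNCCAC, was found in 1.05% of all windows and in Pcyt1a alone of the 8. The E-box CACGTG, found in 6.02% of all windows, had no match in the 8. These matches are descriptions of sequence, and they do not show binding.

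Over the whole set, 4 of the 10 genes were lower in hyperoxia and 0 were higher at an adjusted p under 0.05 (edgeR), where 10.8% of all genes tested were lower and 11.8% were higher. Chka was higher at an unadjusted p under 0.05, and DESeq2 called 1 higher and limma-voom 0. The median log2 fold change of the 10 was -0.46, against -0.03 over all genes tested, and 9 of the 10 were below 0. Without hyperoxia replicate 1, 5 were lower and 0 were higher (1 by an unadjusted p under 0.05), where 13.3% of 12752 genes tested were lower and 15.2% higher. Calls over all genes split into 1473 higher and 1346 lower, but into 1097 and 1729 when the deposited log values were fitted with limma. The groups did not overlap for 2 of the 10 genes, Acly and Scd1, both lower, where 5.23% of all genes tested did not overlap in that direction.

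**Figure D1:**
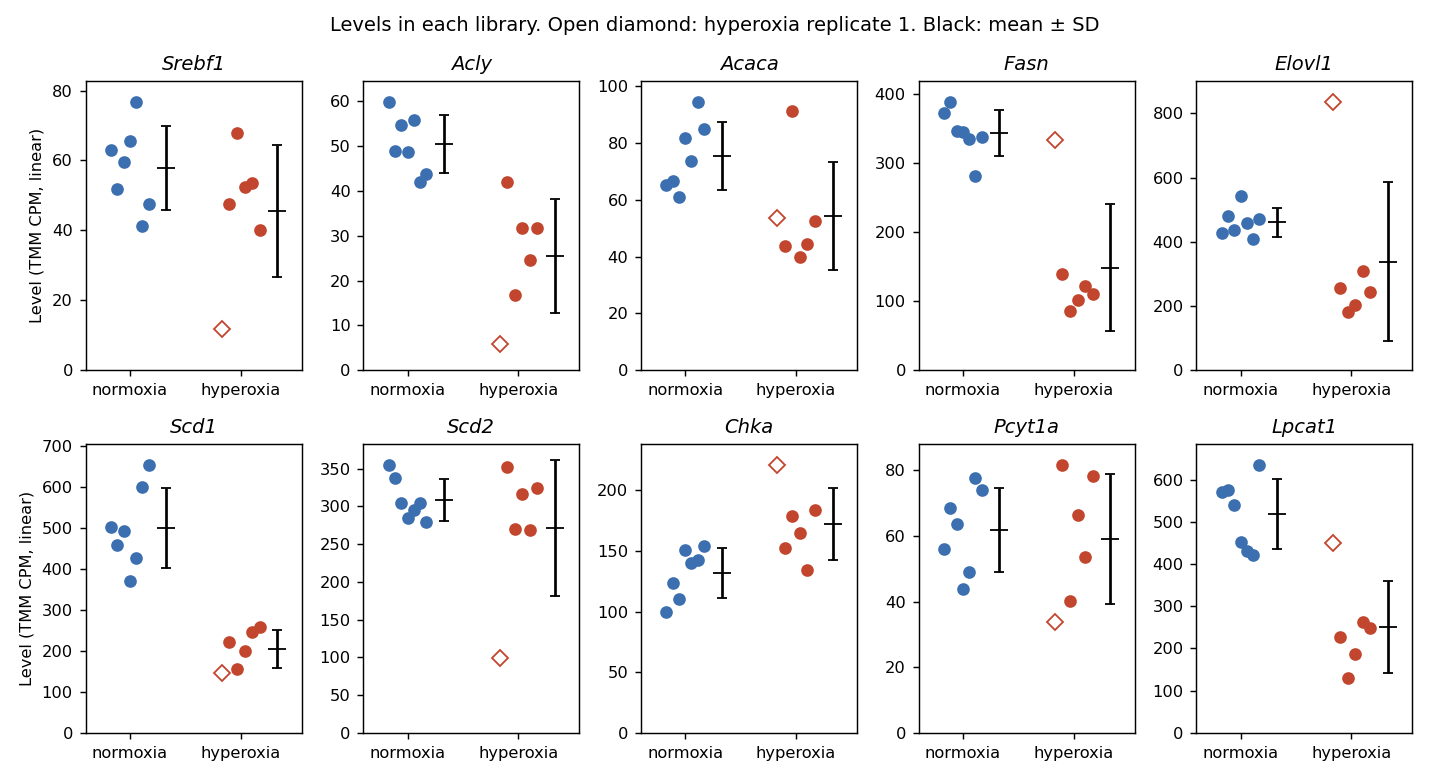
Level of each of the 10 genes in each library (TMM CPM on a linear axis from 0), with normoxia in blue (n = 7), hyperoxia in red (n = 6), hyperoxia replicate 1 as an open diamond, and the mean ± SD in black. Acly and Scd1 show no overlap between the groups, and the diamond lies far above the other 5 hyperoxic libraries for Fasn (333 CPM) and Elovl1 (834 CPM) and far below them for Scd2 (99.7 CPM).

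The transcription factor gene Srebf1 did not pass the test. Its level ran from 41.3 CPM through a median of 59.5 to 76.6 CPM in normoxia, and from 11.8 through 50.1 to 67.7 CPM in hyperoxia. The groups overlapped, with the lowest value in hyperoxia replicate 1 and the other hyperoxic libraries between 40.2 and 67.7 CPM. Normoxic libraries averaged 57.9 ± 11.97 CPM (SD, n = 7), and hyperoxic ones 45.6 ± 18.8 CPM (SD, n = 6). The log2 fold change was -0.33 ± 0.27 (SE, adjusted p = 0.42). It was -0.12 ± 0.17 without hyperoxia replicate 1 (adjusted p = 0.63), and with all libraries -0.17 once the transcript length and GC trend was removed (adjusted p = 0.67) and -0.55 with limma on the deposited log values (adjusted p = 0.23). Its sign differed between the letter sets, at -0.53 (B to M, which holds replicate 1) and 0.12 (O to S). The last 500 bases of Srebf1 lie opposite Rai1, which stood at 16.4 to 41.5 CPM in normoxia and 5.90 to 35.3 CPM in hyperoxia, and whether the counting used strand is not given in the sources used here.

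Acly, the gene of ATP citrate lyase, fell in hyperoxia. Its level was 42.1, 48.9 and 59.7 CPM (lowest, median and highest) in normoxia and 5.90, 28.2 and 41.9 CPM in hyperoxia. Every hyperoxic library was below every normoxic one, by a narrow margin for hyperoxia replicate 2 (41.9 against 42.1 CPM). The mean fell from 50.5 ± 6.48 to 25.4 ± 12.7 CPM (SD), 1.96-fold lower, with a log2 fold change of -0.97 ± 0.29 (SE, adjusted p = 0.024). Hyperoxia replicate 1 had 11 Acly counts, and without it the change was -0.77 ± 0.18 (adjusted p = 0.0052). Within the letter sets it was -1.27 (B to M) and -0.55 (O to S).

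Acaca, which encodes the carboxylase that makes malonyl-CoA, did not pass the test. The values were 60.8, 73.5 and 94.2 CPM in normoxia and 39.8, 48.4 and 91.4 CPM in hyperoxia. Hyperoxia replicate 3 had the 91.4 CPM, and the other 5 hyperoxic libraries, at 39.8 to 53.6 CPM, lay below all normoxic ones. The log2 fold change was -0.47 ± 0.19 (SE, adjusted p = 0.087), and -0.46 ± 0.20 without hyperoxia replicate 1 (adjusted p = 0.10). It was -0.66 without hyperoxia replicate 3 (adjusted p = 0.0059), and Acaca also passed with limma-voom, limma applied to the deposited log values, library size scaling alone, and a minimum of 10 counts in every library. Within the letter sets it was -0.09 (B to M) and -0.98 (O to S).

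Fasn, the gene of fatty acid synthase, fell in 5 of 6 hyperoxic libraries to less than every normoxic value. The normoxic values were 282, 345 and 388 CPM, and the hyperoxic values 85.1, 116 and 333 CPM. Hyperoxia replicate 1 held the 333 CPM, inside the normoxic range, while the other 5 lay between 85.1 and 140 CPM. The mean was 344 ± 33.6 CPM in normoxia and 149 ± 92.3 CPM in hyperoxia (SD), 2.32-fold lower, with a log2 fold change of -1.21 ± 0.26 (SE, adjusted p = 0.0037). Without hyperoxia replicate 1 the hyperoxic mean was 112 ± 20.6 CPM (SD, n = 5) and the change was -1.60 ± 0.14 (adjusted p = 4.6e-07). Within the letter sets it was -0.87 and -1.48.

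Elovl1, an elongase of saturated and monounsaturated very long chains, passed the test only when hyperoxia replicate 1 was left out, among all fits run (DESeq2 gave no adjusted p). It stood at 408, 459 and 543 CPM in normoxia and at 182, 249 and 834 CPM in hyperoxia. The 834 CPM was that of hyperoxia replicate 1, above all normoxic libraries, and the other 5 were at 182 to 309 CPM, below all of them. With all libraries the log2 fold change was -0.45 ± 0.29 (SE, adjusted p = 0.30), and without that library it was -0.93 ± 0.14 (adjusted p = 0.00011). With all libraries it was -0.10 once the transcript length and GC trend was removed (adjusted p = 0.88) and -0.73 when the deposited log values were fitted with limma (adjusted p = 0.058). Within the letter sets it was -0.07 (B to M, which holds replicate 1) and -0.81 (O to S). The gene's last 500 bases lie opposite Cdc20, whose level did not exceed 3.13 CPM in any library.

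Scd1, a stearoyl-CoA desaturase, had the smallest adjusted p of the 10 genes with all libraries. Its values were 371, 492 and 653 CPM in normoxia and 146, 211 and 259 CPM in hyperoxia. No hyperoxic library reached the lowest normoxic one. The mean fell from 500 ± 97.2 to 205 ± 46.4 CPM (SD), 2.44-fold lower, a log2 fold change of -1.29 ± 0.18 (SE, adjusted p = 0.0001). It was -1.20 ± 0.16 without hyperoxia replicate 1 (adjusted p = 4.5e-05), and -1.32 and -1.43 within the letter sets.

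Scd2, the neighboring desaturase gene, did not pass the test. Its values were 279, 304 and 355 CPM in normoxia and 99.7, 293 and 352 CPM in hyperoxia. Hyperoxia replicate 1 had the 99.7 CPM, and the other 5, from 269 to 352 CPM, overlapped the normoxic range. The log2 fold change was -0.18 ± 0.21 (SE, adjusted p = 0.59), and 0.003 ± 0.11 without that library. With all libraries it was -0.10 with the length and GC trend removed (adjusted p = 0.78) and -0.36 with limma on the deposited log values (adjusted p = 0.32). Its sign differed between the letter sets, at -0.36 (B to M, which holds replicate 1) and 0.04 (O to S). The ratio of Scd2 to Scd1 counts within a library, which does not depend on library scaling, was 0.637 ± 0.126 (SD, n = 7) in normoxia and 1.32 ± 0.392 (SD, n = 6) in hyperoxia. It was above every normoxic library in 5 of 6 hyperoxic ones, and hyperoxia replicate 1, at 0.684, lay inside the normoxic range of 0.428 to 0.768. The mean log2 ratio was 1.02 higher in hyperoxia (exact two-sided permutation test over 1716 arrangements, p = 0.0029, adjusted over 3 ratios p = 0.0087).

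Chka, the gene of choline kinase alpha, was the single gene of the set with a positive log2 fold change over all libraries, and it did not pass the test. It stood at 100.1, 140 and 154 CPM in normoxia and at 134, 172 and 221 CPM in hyperoxia. In hyperoxia, 4 of 6 libraries were above all normoxic ones. The log2 fold change was 0.39 ± 0.15 (SE, adjusted p = 0.069), 0.32 ± 0.13 without hyperoxia replicate 1 (adjusted p = 0.085), and 0.61 and 0.11 within the letter sets. DESeq2 (adjusted p = 0.040) and the fit with the transcript length and GC trend removed (adjusted p = 0.043) called it higher.

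Pcyt1a encodes the cytidyl transferase that is held to set the pace of phosphatidylcholine synthesis. It had values of 43.7, 63.8 and 77.8 CPM in normoxia and 33.8, 60.1 and 81.6 CPM in hyperoxia. The hyperoxic values lay both above and below the normoxic range. The log2 fold change was -0.06 ± 0.21 (SE, adjusted p = 0.86), and its sign turned in 3 of the 13 fits that left out 1 library. Without hyperoxia replicate 1 the change was 0.06 ± 0.18 (adjusted p = 0.84). The ratio of Chka to Pcyt1a counts was 2.22 ± 0.665 (SD, n = 7) and 3.35 ± 1.78 (SD, n = 6), with 6.496 in hyperoxia replicate 1, and did not pass the exact permutation test (log2 difference 0.50, p = 0.13, adjusted p = 0.19). Slc51a, opposite the last 500 bases of Pcyt1a, had at most 4 counts in any library.

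Lpcat1, whose enzyme makes dipalmitoyl phosphatidylcholine from its lyso form in type 2 cells, fell. Its values were 422, 541 and 634 CPM in normoxia and 129, 238 and 451 CPM in hyperoxia. Hyperoxia replicate 1 held the 451 CPM, within the normoxic range, and the other 5, at 129 to 262 CPM, were below it. The mean fell from 518 ± 83.0 to 251 ± 109 CPM (SD), 2.07-fold lower, a log2 fold change of -1.05 ± 0.23 (SE, adjusted p = 0.0038). Without hyperoxia replicate 1 it was -1.28 ± 0.17 (adjusted p = 4e-05), and within the letter sets -0.87 and -1.19.

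**Figure D2:**
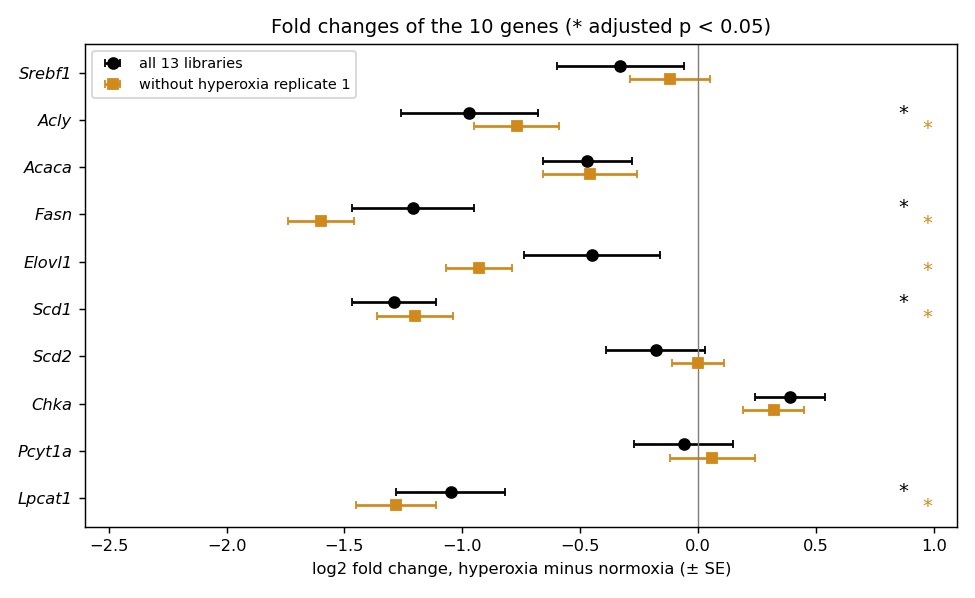
Log2 fold change (hyperoxia minus normoxia) with its SE for each of the 10 genes, from all 13 libraries (black circles) and without hyperoxia replicate 1 (orange squares), where an asterisk of the same color marks an adjusted p under 0.05. Fasn moves from -1.21 to -1.60 and Elovl1 from -0.45 to -0.93 when that library is left out, and Acly, Fasn, Scd1 and Lpcat1 are called in both fits.

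The spread of the 10 genes was small in normoxia, where the coefficient of variation ran from 8.95% (Scd2) to 20.7% (Srebf1). In hyperoxia it ran from 17.3% (Chka) to 73.1% (Elovl1), and without hyperoxia replicate 1 from 11.8% (Scd2) to 38.9% (Acaca), with Elovl1 at 20.7%. Relative to the normoxic mean log2 level, 7 to 9 of the 10 genes were below 0 in each hyperoxic library, against 4 to 6 in each normoxic one. Fasn was the lowest of the 10 in hyperoxia replicates 2 to 6, at -2.0 to -1.29 log2 units. In hyperoxia replicate 1 Acly was the lowest (-2.99) and Elovl1 the highest (0.86). Chka was the highest in 4 of the 6 hyperoxic libraries.

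**Figure D3:**
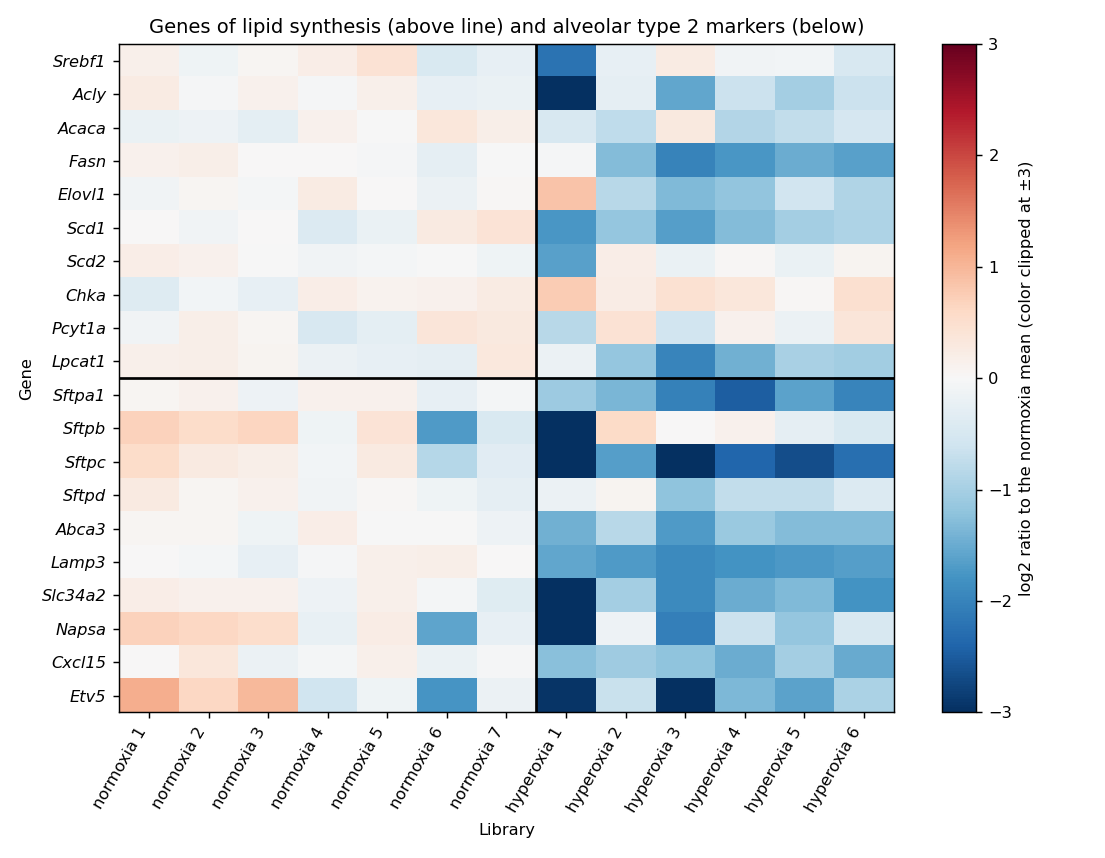
Log2 ratio of each library to the normoxic mean (color, clipped at ±3) for the 10 genes above the line and the 10 alveolar type 2 markers below it, with normoxic libraries left and hyperoxic libraries right of the vertical line. Fasn, Scd1 and Lpcat1 are blue in hyperoxia replicates 2 to 6 together with most type 2 markers, and hyperoxia replicate 1 shows pale Fasn and Lpcat1 and the darkest Acly.

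Among 16 other regulators of lipogenesis, 3 fell (18.8%, against 10.8% of all genes tested), 0 rose and 13 did not pass the test, with a median of -0.19. By an unadjusted p under 0.05, 1 was higher, and DESeq2 called 1 higher and limma-voom 0. Thrsp (Spot 14), which promotes lipogenesis, fell by 1.75 on the log2 scale (from 7.503 ± 2.30 to 2.19 ± 1.56 CPM, adjusted p = 0.0029). Insig1, which retains the SREBP escort protein in the endoplasmic reticulum and is itself an SREBP target, fell from 26.8 ± 4.65 to 14.4 ± 2.27 CPM with no overlap between the groups (-0.90 ± 0.18, adjusted p = 0.0018). Mbtps1, the protease that makes the first cut in SREBP, fell by 0.85 (adjusted p = 0.049), a call lost in 8 of the 13 fits that left out 1 library (adjusted p up to 0.099). Srebf2, the cholesterol counterpart of Srebf1, stood at 47.0 ± 8.05 and 51.3 ± 27.7 CPM (adjusted p = 0.79), Scap at 34.2 ± 12.7 and 28.9 ± 16.3 CPM (adjusted p = 0.72) and Mlxipl, the gene of ChREBP, at 9.08 ± 3.03 and 7.35 ± 2.01 CPM (adjusted p = 0.47). The ratio of Srebf1 to Srebf2 counts was 1.24 ± 0.238 (SD, n = 7) in normoxia and 1.03 ± 0.546 (SD, n = 6) in hyperoxia, with 0.276 in hyperoxia replicate 1 (exact permutation test, log2 difference -0.48, p = 0.25, adjusted p = 0.25).

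Of 13 tested genes that supply acetyl-CoA and NADPH or build chains in mitochondria, 1 rose (7.69%, against 11.8% of all genes tested), 2 fell (15.4%, against 10.8%) and 10 did not pass the test (median -0.03). Me1, the cytosolic malic enzyme that yields NADPH, rose from 86.1 ± 9.85 to 152 ± 17.5 CPM with no overlap (0.81 ± 0.12, adjusted p = 0.00023), opposite in direction to Acly and Fasn. Acss2, which makes acetyl-CoA from acetate, fell from 12.6 ± 2.91 to 6.49 ± 1.63 CPM, also with no overlap (-0.95 ± 0.23, adjusted p = 0.0083). Me3, a mitochondrial malic enzyme, fell by 0.74 (adjusted p = 0.032), a call lost in 11 of 13 such fits (adjusted p up to 0.0896). Slc25a1, the citrate carrier, stood at 18.5 ± 10.6 and 19.0 ± 4.40 CPM (adjusted p = 0.95). Acacb, the second carboxylase gene, had at most 4 counts in any library and was not tested.

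Of 19 tested genes of elongation, desaturation and activation, 3 rose (15.8%, against 11.8% of all genes tested) and 2 fell (10.5%, against 10.8%), with a median of 0.10, and 14 did not pass. With all libraries these shares are near those over all genes. Without hyperoxia replicate 1, 4 rose and 4 fell (21.1% each, where 15.2% and 13.3% of all genes tested in that fit did). Fads3, a member of the fatty acid desaturase family, rose from 85.4 ± 16.1 to 150 ± 32.4 CPM with no overlap (0.81 ± 0.16, adjusted p = 0.0019). Hsd17b12, the ketoacyl reductase of elongation, and the elongase Elovl7 rose by 0.60 and 0.59 (adjusted p = 0.016 and 0.033). Fads1, the desaturase of polyunsaturated chains, fell by 0.93 (adjusted p = 0.044) and Hacd3, a dehydratase of elongation, by 0.82 (adjusted p = 0.0084). The calls of Elovl7 and Fads1 were each lost in 7 of 13 fits without 1 library (adjusted p up to 0.064 and 0.0876). Fads1 was not called once the fit had a term for the letters, and its change was -1.47 within B to M and -0.19 within O to S. Elovl5 stood at 124 ± 33.1 and 83.7 ± 46.9 CPM (adjusted p = 0.37) and Elovl6 at 15.9 ± 4.07 and 15.5 ± 7.03 CPM (adjusted p = 0.98), and Fads2 was too low to test.

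In the list of phosphatidylcholine synthesis and remodeling, 4 of 19 tested genes rose (21.1%, against 11.8% of all genes tested) and 2 fell (10.5%, against 10.8%), with a median of -0.14. Chpt1, which completes phosphatidylcholine from CDP-choline downstream of Chka and Pcyt1a, fell from 539 ± 48.9 to 284 ± 147 CPM with no overlap (-0.92 ± 0.27, adjusted p = 0.022, and 0.0505 without hyperoxia replicate 6), while Cept1, which can do the same step, stood at 119 ± 12.9 and 132 ± 30.9 CPM (adjusted p = 0.53). Chkb, the second choline kinase gene, stood at 26.9 ± 9.44 and 18.6 ± 9.70 CPM (adjusted p = 0.39). Of the remodeling enzymes, Lpcat3 rose from 37.7 ± 5.60 to 56.1 ± 11.1 CPM with no overlap (0.57 ± 0.15, adjusted p = 0.014), unlike Lpcat1, and Mboat2 rose from 12.4 ± 3.60 to 33.8 ± 6.98 CPM, also with no overlap (1.44 ± 0.22, adjusted p = 0.00024). Lpcat2 stood at 9.38 ± 2.00 and 12.9 ± 3.56 CPM (adjusted p = 0.16, and 0.039 without hyperoxia replicate 1). Prdx6, a peroxiredoxin that also has phospholipase activity toward surfactant lipid, rose by 0.59 (adjusted p = 0.025, and 0.051 or 0.058 without normoxia replicate 6 or 7), and Pla2g1b, a secreted phospholipase, fell by 2.39 from 13.8 ± 6.27 to 2.40 ± 1.81 CPM (adjusted p = 0.0034). The change of Pla2g1b was -3.67 within B to M and -0.79 within O to S, and that of Mboat2 was 1.82 and 0.90. Pcyt1b and Lpcat4 were too low to test.

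In the list of the glycerolipid backbone and phosphatidylglycerol, another surfactant lipid, 4 of 25 tested genes rose (16.0%, against 11.8% of all genes tested) and 0 fell (median 0.24). By an unadjusted p under 0.05, 2 were lower, and DESeq2 and limma-voom each called 0 lower. The 3 largest increases were in Lpin2, a phosphatidate phosphatase (0.98 ± 0.17, adjusted p = 0.00054), Gk, the glycerol kinase (0.91 ± 0.26, adjusted p = 0.021), and Agpat5, an acyltransferase (0.87 ± 0.12, adjusted p = 0.00013). The change of Gk was 0.58 without hyperoxia replicate 3 (adjusted p = 0.033), which had 114 CPM, and Gk was not called when the deposited log values were fitted with limma (0.67, adjusted p = 0.077). Gpam was too low to test. In the list of uptake and storage, 1 of 15 tested genes rose (6.67%, against 11.8% of all genes tested) and 4 fell (26.7%, against 10.8%), with a median of -0.28. Plin2, which coats lipid droplets, rose from 116 ± 16.4 to 511 ± 333 CPM with no overlap (2.14 ± 0.29, adjusted p = 8.2e-05), and by 1.73 ± 0.15 without hyperoxia replicate 1, which had 1170 CPM. Gpihbp1, the capillary anchor of lipoprotein lipase, fell by 1.53, Fabp5, a fatty acid binding protein, by 0.97 and Mgll, monoacylglycerol lipase, by 0.71 (adjusted p = 0.00012, 0.00016 and 0.015). Mgll was not called without normoxia replicate 5, hyperoxia replicate 4 or hyperoxia replicate 6 (adjusted p up to 0.0535), or with the transcript length and GC trend removed (-0.48). Of 19 tested cholesterol synthesis genes, 1 (Hsd17b7; 0.89 ± 0.31, adjusted p = 0.047) rose (5.26%, against 11.8% of all genes tested) and 0 fell (against 10.8%), with a median of -0.02. By an unadjusted p under 0.05, 1 of them was lower, and DESeq2 and limma-voom called 1 lower each. The call of Hsd17b7 was lost in 11 of 13 fits without 1 library (adjusted p up to 0.0915). Hyperoxia replicate 1 had 6.43 CPM of it, the other 5 hyperoxic libraries 30.2 to 41.5 CPM, and the normoxic ones at most 23.9 CPM. Without hyperoxia replicate 1 the change of Hsd17b7 was 1.11 ± 0.18 (adjusted p = 0.00025).

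**Figure D4:**
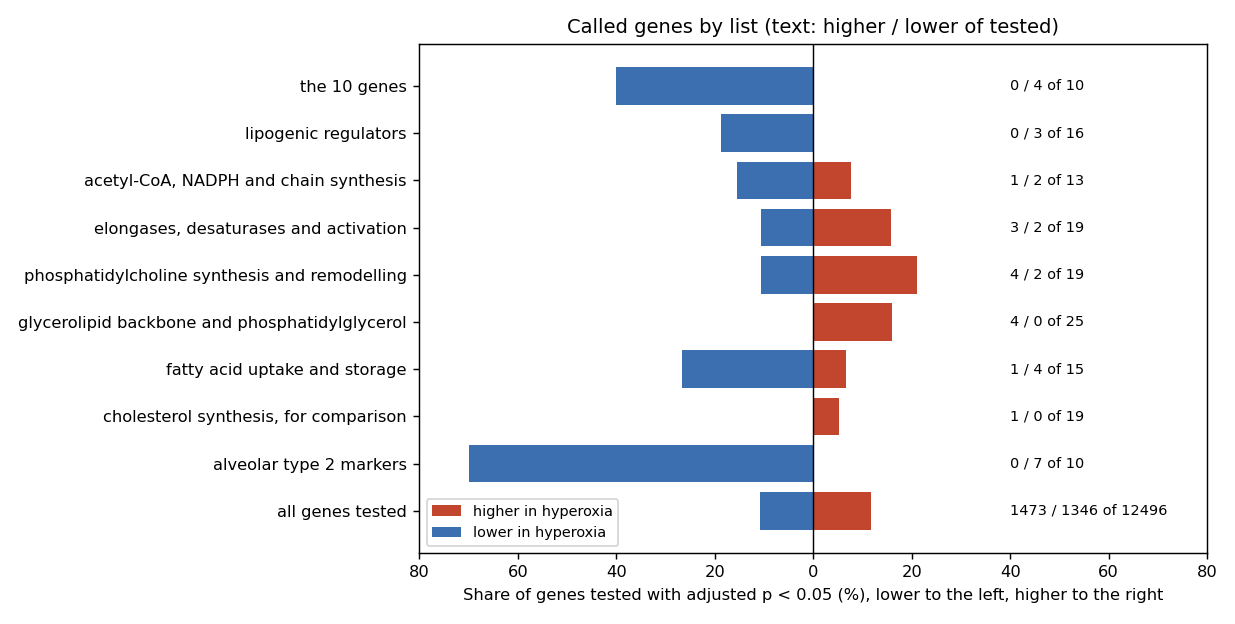
Share of tested genes with an adjusted p under 0.05 in each list, in percent, lower in hyperoxia to the left (blue) and higher to the right (red), with the counts at the right. The 10 genes (4 lower of 10), the lipogenic regulators (3 lower of 16) and the alveolar type 2 markers (7 lower of 10) have bars to the left alone. The glycerolipid list (4 higher of 25) and the cholesterol list (1 higher of 19) have bars to the right alone.

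For 12 of the 26 genes named from these lists and the type 2 markers that passed the test, the changes within the letter sets differed by more than 1.5 times. Set B to M holds hyperoxia replicate 1, and its part in these differences was not tested. Over all pathway lists together, 14 of 126 tested genes rose (11.1%) and 13 fell (10.3%), with a median of 0.02, and these shares are near the 11.8% and 10.8% over all genes tested. Without hyperoxia replicate 1, 23 of 128 rose (18.0%) and 18 fell (14.1%), where 15.2% of all genes tested in that fit were higher and 13.3% lower. In that fit 3 cholesterol synthesis genes rose and 1 fell, 2 genes of uptake and storage rose, 2 genes of the acetyl-CoA and NADPH list rose and 3 fell, and 1 of the other regulators rose.

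With all libraries, markers of alveolar type 2 cells, which make surfactant, moved in the same direction as Acly, Fasn, Scd1 and Lpcat1. In hyperoxia replicate 1 the log2 ratios of the markers to the normoxic mean ran from -8.12 (Sftpc) to -0.17 (Sftpd). In that library Acly was at -2.99 and Scd1 at -1.75, but Fasn was at -0.04 and Lpcat1 at -0.18. Of the 10 markers, 7 fell (70.0%, against 10.8% of all genes tested) and 0 rose (against 11.8%), with a median of -1.48. By an unadjusted p under 0.05, 9 were lower and 0 higher, and DESeq2 and limma-voom each called 8 lower and 0 higher. Without hyperoxia replicate 1, 8 fell (80.0%, against 13.3% of all genes tested) and 0 rose (against 15.2%), with a median of -1.35. Their summed level was 15538 to 26982 CPM in normoxia and 4759 to 8974 CPM in hyperoxia, and no marker was at 0. Sftpc, the gene of surfactant protein C, fell from 9637 ± 2850 to 1465 ± 1010 CPM (-2.72 ± 0.60, adjusted p = 0.0042). Hyperoxia replicate 1 had 32.7 CPM of Sftpc and the other 5 hyperoxic libraries 666 to 2915 CPM. Without that library the change of Sftpc was -2.45 ± 0.31 (adjusted p = 2.4e-05). Abca3, the transporter that loads phosphatidylcholine into lamellar bodies, fell from 126 ± 11.3 to 52.0 ± 10.9 CPM (-1.27 ± 0.15, adjusted p = 1.9e-05). It was -1.22 ± 0.14 without hyperoxia replicate 1 (adjusted p = 1.1e-05). The part of these markers in the result was not tested.

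Other cells were described by the same kind of sum, and the counts of their markers stand beside 10.8% lower and 11.8% higher over all genes tested. White adipocyte markers summed to 49.3 to 179 CPM in normoxia and 42.4 to 118 CPM in hyperoxia, with 1 of 8 tested lower and 0 higher (0 higher also by unadjusted p and with DESeq2 and limma-voom). DESeq2 called 1 lower and limma-voom 0, with 2 lower by unadjusted p in limma-voom. Adipoq stood at 20.6 ± 14.5 and 13.02 ± 6.41 CPM (adjusted p = 0.39) and Plin1 at 20.8 ± 6.90 and 15.8 ± 6.10 CPM (adjusted p = 0.35). Brown adipocyte markers summed to at most 9.84 CPM in any library, and none could be tested. The lipofibroblast sum was 2545 to 2984 CPM in normoxia and 1995 to 3109 CPM in hyperoxia, with the highest value in hyperoxia replicate 1. The other 5 hyperoxic libraries, at 1995 to 2392 CPM, were below all normoxic ones. Of its 6 tested genes, 2 rose (Plin2 among them) and 2 fell, and without hyperoxia replicate 1, 2 rose and 3 fell. The sum of 5 club cell markers, which rests on Scgb1a1, was 14598 to 53295 CPM in normoxia and 250 to 10189 CPM in hyperoxia, lower with no overlap, and the 250 CPM was that of hyperoxia replicate 1. Of the 5 club cell markers, 3 fell (60.0%, against 10.8% of all genes tested), and 4 fell without hyperoxia replicate 1 (80.0%, against 13.3%). The sum of alveolar type 1 markers (3910 to 4391 and 4859 to 5746 CPM) did not overlap between the groups and was higher in hyperoxia, while the median log2 fold change of the 8 markers was 0.02, with 1 called higher and 1 lower. Sums of macrophage markers (345 to 448 and 174 to 722 CPM, 1 higher and 5 lower of 9), capillary markers (2647 to 4972 and 940 to 4652 CPM, 3 lower of 7) and cardiac muscle markers (89.6 to 257 and 4.29 to 179 CPM, 4 lower of 6) overlapped between the groups. The overlap of the macrophage sums came from hyperoxia replicate 1, at 174 CPM, and the other 5, at 473 to 722 CPM, were above all normoxic libraries. Without that library 3 macrophage markers were higher and 4 lower. The overlap of the cardiac muscle sums came from hyperoxia replicate 6, at 179 CPM, and the other 5, at 4.29 to 39.3 CPM, were below all normoxic libraries. Whether these cells had a part in the levels of the 10 genes was not tested.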

How the data were processed

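Lung RNA of 7 normoxic and 6 hyperoxic samples was measured with Quant-seq. The authors quantified reads with kallisto in BioJupies and deposited raw counts in a table of 32544 gene symbols, with no scaling or filter. They also deposited log10 values, which equal log10 of CPM plus 1 (recomputed to within 1.3e-15). Per the labels the build is mm10, and limma 3.54.2 is named for statistics. The annotation and use of strand are not given in the sources used here. 0 columns were unmapped.

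The main test was the quasi-likelihood test of edgeR 4.0.16 (glmQLFit, glmQLFTest, TMM, filterByExpr, Benjamini-Hochberg over all 12496 genes) in R 4.3.3. SE values come from the fold change and the F statistic. Ratios used a pseudocount of 0.5. No depth floor (3 counts, 0.661 to 1.87 CPM) was reached by the 10 genes, and counting error alone is covered by such floors. Alternatives were DESeq2 1.42.0, limma 3.58.1 (voom, or the deposited log10 values on a log2 scale), scaling by library size, fits without the filter or with a minimum of 10 counts everywhere, letter set, replicate block, each library left out and, added after seeing the data, a spline of 5 terms each for transcript length and GC (GENCODE M21; 11884 genes). The fits were tested on simulated data with a dispersion (spread beyond counting noise) of 0.05 and no library that stood apart. The common dispersion of these libraries was 0.106, so the simulated setting was easier. There edgeR and DESeq2 each recovered 97.5% of 200 changed genes and limma-voom 97.0%. Of their calls, 5.34%, 8.02% and 3.48% were false.

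The 10 genes and all lists were chosen with earlier results of these data known. Other genes named are, in each list, the called ones with the 3 largest changes in each direction, and genes named whatever their values (Srebf2, Mlxipl, Scap, Insig1, Acacb, Acss2, Me1, Slc25a1, Elovl5, Elovl6, Fads1, Fads2, Chkb, Pcyt1b, Chpt1, Cept1, Lpcat2, Lpcat3, Lpcat4, Gpam, Sftpc, Abca3, Adipoq, Plin1). Rai1, Cdc20 and Slc51a are named for their overlap. Of the list symbols, Selenoi and Gpat3 were matched by older symbols (Ept1, Agpat9), and Ptpmt1 and Siglec5 were not matched. All pairs of libraries of a group differed by more than sampling noise (lowest chi-square per gene 3.79 over 36 pairs). Deviations of same-numbered libraries correlated at -0.325 to 0.272, so no pairing by number was seen. The labels do not say whether the numbers pair the samples.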

Additional observations from a re-analysis of the deposited data

Results flagged for a closer look

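A library was flagged where its gap to the nearest library of its group, divided by the range of the group, passed Dixon's 95% critical value. Chance flags about 1 in 20 groups, and 17 of 130 groups were flagged, 8 of them for hyperoxia replicate 1. No cause was tested.

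Of the 10 genes, 4 had such a library. Hyperoxia replicate 1 was far above the other hyperoxic libraries for Fasn (333 CPM against 85.1 to 140, gap over range 0.78) and Elovl1 (834 against 182 to 309, 0.805), and far below them for Scd2 (99.7 against 269 to 352, 0.671). Hyperoxia replicate 3 was above the others for Acaca (91.4 against 39.8 to 53.6 CPM, 0.733).

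Among the other named genes, hyperoxia replicate 1 was highest for Prdx6 (3901 CPM, 0.646), Agpat5 (114 CPM, 0.643) and Plin2 (1170 CPM, 0.743) and lowest for Hsd17b7 (6.43 CPM, 0.678). Hyperoxia replicate 3 was highest for Cept1 (191 CPM, 0.654) and Gk (114 CPM, 0.695), and hyperoxia replicate 2 for Thrsp (5.29 CPM, 0.736). In normoxia, replicate 5 was highest for Fads1 (69.2 CPM, 0.612), replicate 7 was highest for Pcyt1b (5.35 CPM, 0.64), and replicate 5 had the lowest total count (1607111, against 2696280 or more, 0.612).

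Of the marker sums, hyperoxia replicate 1 was highest for lipofibroblast markers (3109 CPM, 0.644), hyperoxia replicate 4 lowest for alveolar type 1 markers (4859 CPM, 0.704) and hyperoxia replicate 6 highest for cardiac muscle markers (179 CPM, 0.799).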

How the results depend on the processing

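Acly, Fasn, Scd1 and Lpcat1 kept their direction in every fit and passed in all of them but one: Acly, at -1.15 with the replicate block, was lost (adjusted p = 0.084). The number of the 10 genes called higher was 1 in place of 0 with DESeq2 and with the length and GC trend removed (Chka in both), and that called lower ran from 3 to 5.

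Over the other pathway genes, 14 were higher and 13 lower. With the replicate block 8 and 7 were called, with the length and GC trend removed 22 higher, and with 1 library left out 12 to 23 higher and 8 to 18 lower. The extremes were 23 higher without hyperoxia replicate 1 and 8 lower without normoxia replicate 5. The block also lowered the calls over all genes to 718 higher and 626 lower. No label says that the replicate numbers pair the samples, and 1 of 6 normoxic libraries correlated best with its own number.

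The log2 ratio of Scd2 to Scd1 was 0.925 higher in the paired test over 6 replicate numbers (replicate block; exact sign-flip test, adjusted p = 0.19), where it was called without pairing. The smallest p of that test is 0.03125.

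Signs turned for genes near 0: Pcyt1a (0.018, trend removed), Srebf2 (-0.039 with limma-voom, -0.085 with limma on log CPM, -0.058 with the block), Slc25a1 (-0.017, library size alone) and Elovl6 (0.011 with DESeq2, 0.030 without a filter, 0.032 with the trend removed). With 1 library left out, the range was -0.16 to 0.06 for Pcyt1a, -0.25 to 0.003 for Scd2, -0.161 to 0.301 for Srebf2, -0.14 to 0.31 for Slc25a1 and -0.19 to 0.147 for Elovl6.

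Under the block, Acss2, Elovl7, Fads1, Gk, Hsd17b12, Hsd17b7, Mbtps1, Me3, Pla2g1b and Prdx6 also lost their calls, and the cause was not tested. Calls were also lost with limma on log CPM (Elovl7, Gk and Hsd17b7), library size alone (Elovl7 and Hsd17b7), limma-voom (Hsd17b7), the letter term (Fads1 and Hsd17b7), no filter (Mbtps1 and Me3) and the trend removed (Mgll).

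The median of all genes was -0.03, and -0.16 with limma on log CPM. Against it the 4 called genes remained lower.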
